A study of Drosophila melanogaster with 73 samples.

Results

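The mitochondrial ribosomal protein genes were taken as every row of the deposited transcript table whose symbol begins with mRpL or mRpS followed by a digit. The rule selected 73 of 23932 rows, of which 47 carry large subunit names and 26 small subunit names. Levels are in TPM, the share of a library's transcripts after correction for transcript length. All 73 passed the filter on low values, a median above 5 TPM at either temperature on days 4 and 5, which left 7358 genes in all. Members of the family that carry other names, among them *tko* (the S12 protein) and *bonsai* (the S15 protein), fall outside the rule and are given only beside it.

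The libraries came from Iso31, an isogenic w1118 strain of *Drosophila melanogaster*, and measured polyadenylated RNA of the abdominal fat body, the fly's organ of energy storage and intermediary metabolism. Females were aged with males for 3 days, entrained to 12 h of light and 12 h of dark at 25°C, and at about 7 days old either shifted to 18°C or kept on at 25°C. The settled groups of days 4 and 5 held 26 libraries at 25°C and 24 at 18°C. The early groups of days 1 and 2 held 18 libraries at 18°C and 5 at 25°C, the latter at ZT00, ZT06, ZT12 and ZT18 of day 1 and ZT00 of day 2, where ZT counts the hours from lights on. Each library pooled the abdomens of about 10 flies, with gut, ovaries and tubules pulled out by hand and fat tissue collected with the attached epidermis. Replicate 1 was sampled about every 2 h and replicate 2 about every 6 h, and the early groups held replicate 1 alone. At 18°C the early and settled libraries differ in age and in time since the shift, and these cannot be told apart there. At 25°C, where no shift was made, they differ in age.

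Mitochondria keep a ribosome of their own, which translates only the few proteins encoded in mitochondrial DNA, subunits of the respiratory chain and ATP synthase. Its RNAs are made in the organelle, but all of its proteins are encoded in the nucleus, made by cytosolic ribosomes and imported. Some belong to families shared with bacterial ribosomes, in general those with low numbers, and others were added in the mitochondrial lineage. Mutations in *tko* and *bonsai* impair mitochondrial translation and the growth of the fly.

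Of the 11 fat body markers listed, 10 had a median above 1 TPM in every group. Markers of other tissues were also present. The mean log2(TPM + 1) of 12 germline markers reached from 1.04 to 4.37 in the settled 25°C libraries, from 1.03 to 5.87 in the settled 18°C libraries, from 1.12 to 5.74 early at 18°C and from 2.86 to 5.10 early at 25°C, and 11 or 12 of the 12 had a median above 1 TPM. This germline score exceeded 4 in 1, 8, 4 and 2 libraries of those groups. The score of 15 muscle markers had a median of 6.78 in the settled 25°C group, 6.37 in the settled 18°C group, 6.96 early at 18°C and 7.01 early at 25°C, with 13 of the 15 above 1 TPM in each. In bulk tissue, fewer cells of a type and less RNA per cell cannot be told apart, and TPM, scaled to the same total in every library, gives shares rather than amounts of RNA.

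The family was expressed at even, moderate levels. At 25°C on days 4 and 5 the member medians ran from 18.5 TPM for *mRpL11*, whose bacterial counterpart lies in the GTPase-associated centre, to 103 TPM for *mRpL28*, and the median over members was 37.5 TPM. TPM is per transcript length, so these levels can be set side by side. Below *mRpL28* came *mRpS5* with 101 TPM, *mRpS9* with 93.3 TPM, *mRpS21* with 88.2 TPM and *mRpL42* with 82.9 TPM. The ranges over libraries of *mRpL28* (78.3 to 118 TPM), *mRpS5* (81.0 to 131 TPM) and *mRpS9* (83.0 to 108 TPM) overlapped almost wholly. At the other end *mRpL53* had a median of 20.7 TPM and *mRpL39* one of 22.4 TPM. All exons of *mRpL53* are shared with *AGO1* or *CG33155*, and the libraries were not stranded, so its value is uncertain. The 73 genes together summed to a median of 3118 TPM per library at 25°C and 3354 TPM at 18°C on days 4 and 5.

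The members shared several features of gene structure in the Ensembl annotation of BDGP6.54. Their median exon length was 783 bases, against 2038 bases for the 7163 protein-coding genes tested. A protein-coding neighbour on the other strand began within 500 bases upstream for 51 members (69.9%), against 36.2% of those genes. Any exon bases were shared with another gene for 43 members (58.9%), against 41.4% of the protein-coding genes. More than 10% of the exon bases were shared for 10 members (13.7%), against 16.7% of the protein-coding genes. They were spread over the chromosome arms, with 11 on X, 12 on 2L, 12 on 2R, 17 on 3L and 21 on 3R.

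The first comparison asked how the settled level differed between the temperatures on days 4 and 5, with time of day taken up by 24 h harmonic terms. At 18°C, 38 of the 73 members were higher and 3 were lower at an adjusted p under 0.05 (limma, Benjamini-Hochberg over all 7358 genes). Across all genes tested 35.3% were higher and 15.5% were lower. In this fit the share of higher members stood above the background and that of lower members below it. The former did not hold in every setting, as given further on. The shifts were small, with a median log2 difference of 0.15 over the members and 0.09 over all genes. The unadjusted p was under 0.05 for 45 members, against 56.3% of all genes. The libraries of the temperatures overlapped for every member, and 0.313% of all genes had groups that did not overlap. These p-values measure the spread between libraries.

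The most certain of the higher members was *mRpL10* (FBgn0031231, BDGP6.54 2L:203779-204782, plus strand), which anchors the stalk that recruits translation factors to the large subunit. Its lowest, median and highest levels were 33.9, 41.8 and 60 TPM at 25°C and 39.9, 56.4 and 75.7 TPM at 18°C. It was above the 25°C median in 22 of the 24 libraries at 18°C, with a log2 difference of 0.43 ± 0.056 (SE, n = 50, adjusted p = 1.1e-08). *mRpL12*, the other protein of the stalk, ran from 50.6 through 71.3 to 87.8 TPM at 25°C and from 42.1 through 61.1 to 120 TPM at 18°C. Its difference of -0.08 ± 0.087 did not pass (adjusted p = 0.436). The stalk proteins thus did not share a settled difference in this test, although the difference between them was not itself tested.

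*mRpL46* (FBgn0035272, BDGP6.54 3L:1777439-1778347, plus strand), a large subunit protein without a bacterial counterpart, had 29.5, 39.9 and 50.5 TPM at 25°C and 36.9, 51.0 and 62.9 TPM at 18°C, lowest, median and highest. It was above the 25°C median in 23 of 24 libraries, with a log2 difference of 0.38 ± 0.049 (adjusted p = 1.59e-08). *mRpL47*, whose human counterpart takes the place of bacterial L29 at the exit tunnel, had a median of 32.5 TPM (20.01 to 42.8) at 25°C and 43.3 TPM (32.9 to 62.3) at 18°C. All 24 libraries at 18°C lay above the 25°C median, and the log2 difference was 0.44 ± 0.065 (adjusted p = 1.8e-07). The ranges of the temperatures overlapped in both genes.

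Among the other large subunit proteins, *mRpL14*, at the subunit interface in bacteria, rose by 0.39 ± 0.067 from a median of 35.5 TPM (25.8 to 44.4) to 43.1 TPM (30.5 to 75.8). *mRpL17* rose by 0.38 ± 0.065 and *mRpL18*, which binds 5S rRNA in bacteria, by 0.36 ± 0.063, from medians of 32.7 and 27.3 TPM to 41.1 and 34.2 TPM. *mRpL17* shares 23.6% of its exon bases with *CG34263* on the other strand. In the small subunit, *mRpS14*, a protein of its head, had a median of 53.0 TPM (35.3 to 67.8) at 25°C and 73.1 TPM (52.2 to 99.9) at 18°C, a log2 difference of 0.44 ± 0.073 (adjusted p = 2.38e-06). *mRpS24*, the counterpart of bacterial S3 in human mitochondria, had medians of 35.8 and 46.4 TPM and a log2 difference of 0.34 ± 0.063. *mRpS14* shares 35.8% and *mRpS24* 55.3% of its exon bases with other genes, so part of these values may belong to their neighbours.

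*mRpS9* (FBgn0037529, BDGP6.54 3R:7889277-7902667, minus strand), a protein of the small subunit head whose bacterial counterpart touches the P-site tRNA, went the other way. Its lowest, median and highest levels were 83.0, 93.3 and 108 TPM at 25°C and 67.8, 78.5 and 99.4 TPM at 18°C. Only 2 of the 24 libraries at 18°C lay above the 25°C median, and the log2 difference was -0.25 ± 0.034 (adjusted p = 4.48e-08). Of its exon bases 25.1% lie opposite *ArgRS-m*, the mitochondrial arginyl-tRNA synthetase, which was higher at 18°C by 0.18 ± 0.062. The other lower members were *mRpS31*, with medians of 36.1 and 31.1 TPM and a difference of -0.14 ± 0.059 (adjusted p = 0.0394), and *mRpL38*, with medians of 41.2 and 36.8 TPM and -0.11 ± 0.046 (adjusted p = 0.0434).

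**Figure D1:**
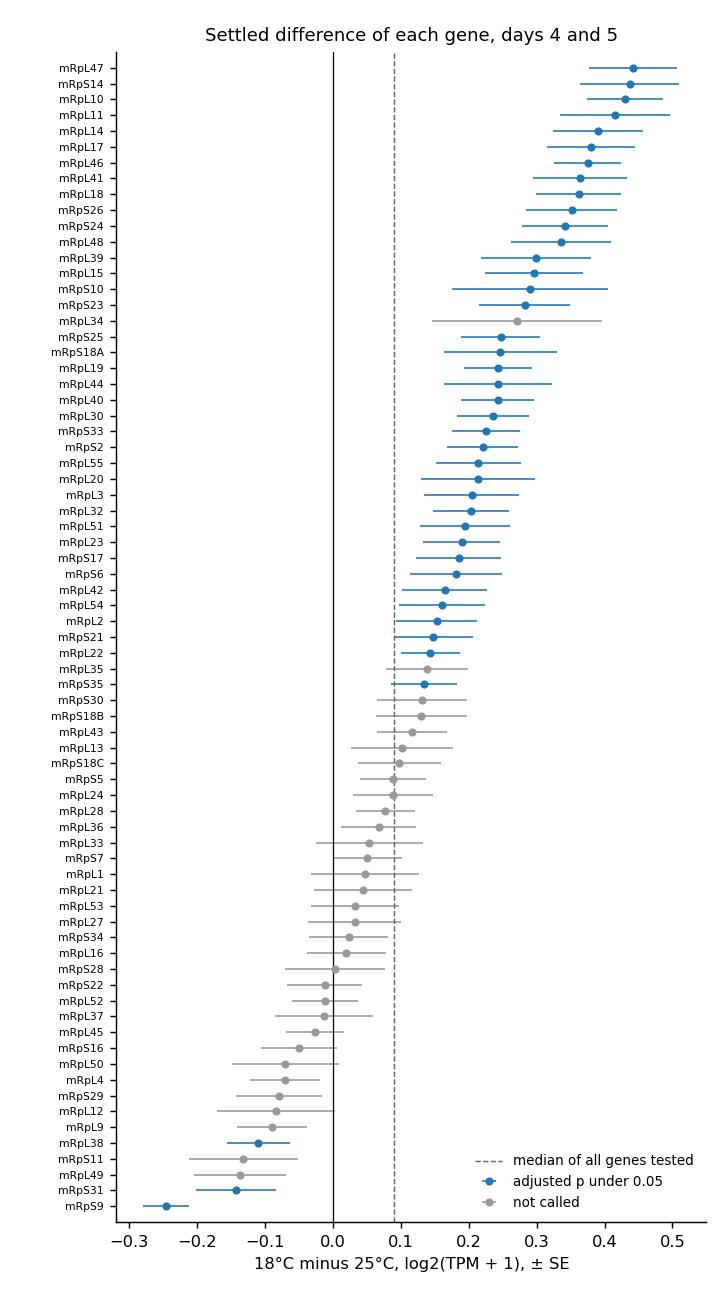
Difference between 18°C and 25°C on days 4 and 5 for each of the 73 genes, on the log2(TPM + 1) scale; points are fitted differences, bars ± 1 SE (50 libraries), blue marks an adjusted p under 0.05 and the dashed line the median of all genes tested. 38 blue points lie to the right of 0 and 3 to the left, with *mRpS9* at the far left at -0.25.

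Some members were looked at for roles known from other species. *mRpL23*, at the exit of the tunnel like *mRpL47*, was higher by 0.19 ± 0.057 (adjusted p = 0.00491). *mRpL24*, next to it, differed by 0.09 ± 0.059 (adjusted p = 0.213) and *mRpL45*, which in human cells holds the ribosome at the inner membrane, by -0.03 ± 0.043 (adjusted p = 0.637). Of the S18 proteins, *mRpS18A*, whose human counterpart sits in the large subunit, was higher by 0.25 ± 0.083 (adjusted p = 0.0118). *mRpS18B* differed by 0.13 ± 0.067 and *mRpS18C* by 0.10 ± 0.061, neither past the threshold. *mRpL55* was higher by 0.21 ± 0.062, and *mRpS29*, the GTP-binding protein known as DAP3 in mammals, differed by -0.08 ± 0.063 (adjusted p = 0.294). Of the 5 members with the highest medians at 25°C, *mRpS9* was lower, as given above, and *mRpL42* was higher by 0.16 ± 0.062 (adjusted p = 0.0245). The others differed, *mRpL28* by 0.08 ± 0.043, *mRpS5* by 0.09 ± 0.049 and *mRpS21* by 0.15 ± 0.058, and of these 3 only the last passed (adjusted p = 0.0312).

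Both subunits and both ranges of numbers held higher and lower members. Large subunit names counted 25 higher and 1 lower of 47 with a median of 0.16, and small subunit names 13 higher and 2 lower of 26 with a median of 0.13. Numbers up to L36 or S21, in general the families shared with bacteria, counted 21 higher and 1 lower of 42, and higher numbers 17 higher and 2 lower of 31. The split followed the symbols alone, and the higher numbers include *mRpS24* and *mRpL47*, set beside bacterial proteins above. Outside the rule, *tko* differed by 0.12 ± 0.058 (adjusted p = 0.0736) and *bonsai* by 0.08 ± 0.060 (adjusted p = 0.304).

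The ribosomal proteins of the cytosol went down at 18°C. Of 85 tested, 81 were lower and none was higher, with a median of -0.23, and 82 were lower after the libraries were rescaled by the median of ratios. The nuclear genes of the respiratory chain, with whose products the mitochondrially made subunits assemble, counted 2 higher and 25 lower of 67 with a median of -0.08, and none higher and 38 lower after rescaling. The other genes of mitochondrial translation were split, 6 higher and 5 lower of 24, and 6 and 10 after rescaling. Higher were the initiation factor *mIF2* (0.29 ± 0.051), the elongation factors *mEFG1* (0.34 ± 0.071) and *mEFTs* (0.24 ± 0.058) and the synthetases *MetRS-m*, *SerRS-m* and *ArgRS-m*. Lower were *AsnRS-m* (-0.43 ± 0.080), *mRF1*, a release factor (-0.31 ± 0.079), *LeuRS-m*, *mEFTu2* and *PheRS-m*. The small mitochondrial rRNA was higher by 0.52 ± 0.155 and 4 of the 11 mitochondrially encoded protein genes tested were lower, but these transcripts were captured by poly(A), so their levels also follow their tails.

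The settled result leaned on replicate 1. In replicate 1 alone 45 members were higher and 1 was lower (*mRpS9*), against 34.2% and 16.9% of all genes, with a member median of 0.20 against 0.08 over all genes. In replicate 2 alone, with 7 libraries at 25°C and 5 at 18°C, none was higher, 1 was lower (*mRpL12*), 13 had an unadjusted p under 0.05, and the member median was -0.03 against 0.04, where 2.31% of all genes were higher. Its 18°C libraries were taken at ZT06, ZT12 and ZT18 alone, and its 25°C libraries also at ZT00. Replicate and sampled hours are thus not separate here, and their parts were not tested. The mean log2(TPM + 1) of the 73 genes at 25°C had a median of 5.27 in replicate 1 and 5.43 in replicate 2, whereas at 18°C the medians were 5.45 and 5.36. *mRpL10* differed by 0.21 in replicate 2 and *mRpL46* by 0.30, and *mRpS9* differed by -0.22, none past the threshold there. The germline score also moved with temperature: without the 9 libraries above 4 the counts were 24 higher and 9 lower, against 25.0% and 19.4% of all genes, and with the germline, eggshell, gut and muscle scores as covariates 23 higher and 8 lower, against 40.7% and 11.6%. Rescaling of the libraries gave 24 higher and 9 lower, against 27.8% and 23.3%. *mRpL10*, *mRpL46*, *mRpL47*, *mRpS14*, *mRpL14*, *mRpL18* and *mRpS9* passed under each of these 3 settings. With the libraries of lights on alone 6 members were higher, against 15.4% of all genes, and with those of lights off 31, against 23%. The share of higher members thus lay below that of all genes with the marker covariates, with lights on alone and in replicate 2 alone.

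**Figure D2:**
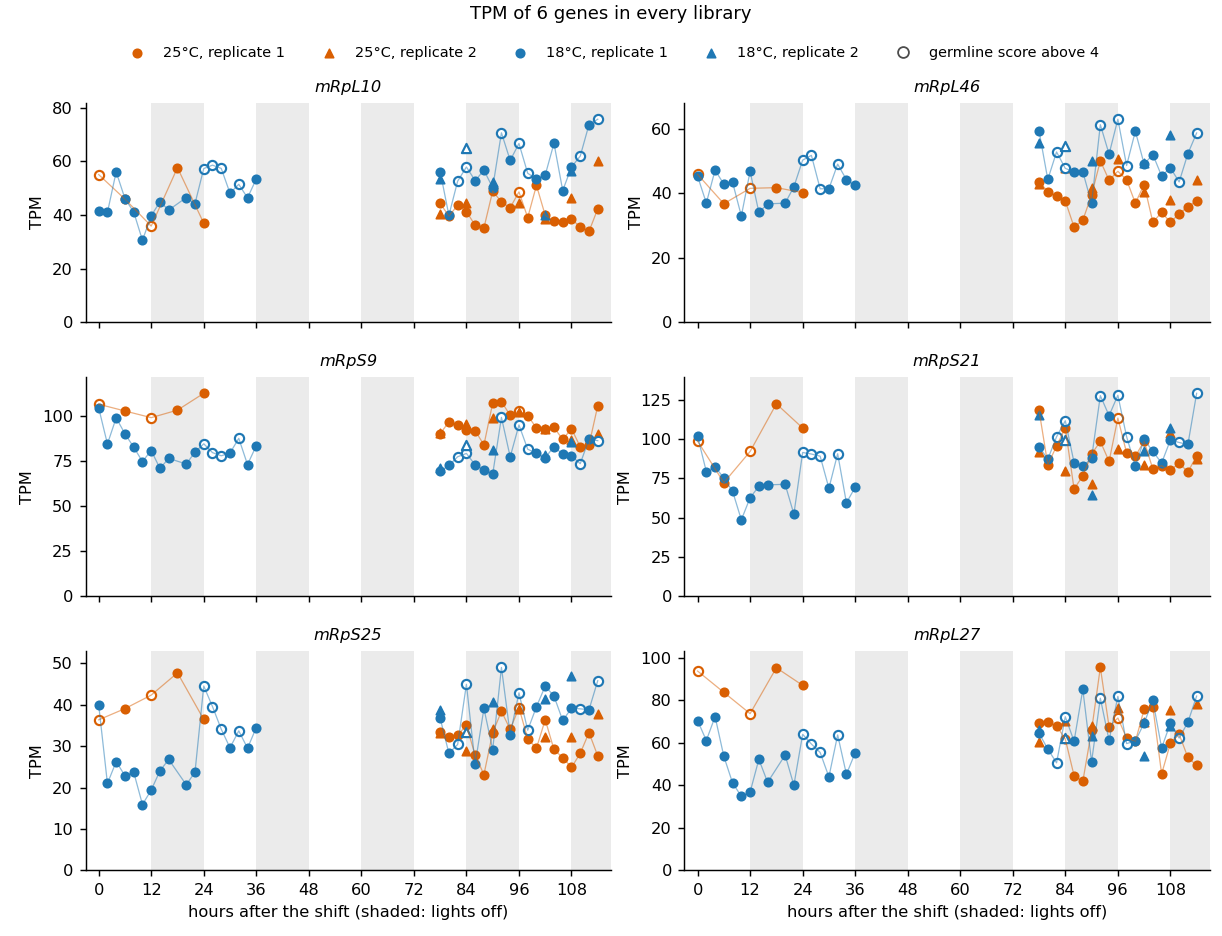
TPM of 6 members in every library against hours after the temperature shift, with lights off shaded, orange for 25°C and blue for 18°C, circles for replicate 1, triangles for replicate 2 and open symbols for a germline score above 4; lines join replicate 1. *mRpL10* and *mRpL46* lie mostly higher at 18°C on days 4 and 5, *mRpS9* lies mostly lower at 18°C after the shift, and *mRpS21*, *mRpS25* and *mRpL27* are low at 18°C during day 1.

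The second comparison asked how the level at 18°C moved after the shift. The family was low during day 1. At the hour of the shift the library of the 18°C series had a mean log2(TPM + 1) over the 73 genes of 5.46. This mean was 5.15 at ZT02 and 5.24 at ZT04, reached 4.77 at ZT10 and stood between 4.99 and 5.10 from ZT12 to ZT22. On day 2 it was 5.63 at ZT00 and 5.59 at ZT08, but 5.20 at ZT06, 5.15 at ZT10 and 5.30 at ZT12, and the values at ZT06 and ZT10 lay within the range of day 1. In the settled 18°C libraries it had a median of 5.44, from 5.12 to 5.91, and 8 of the 10 libraries of day 1 after ZT00 were below every one of them.

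**Figure D3:**
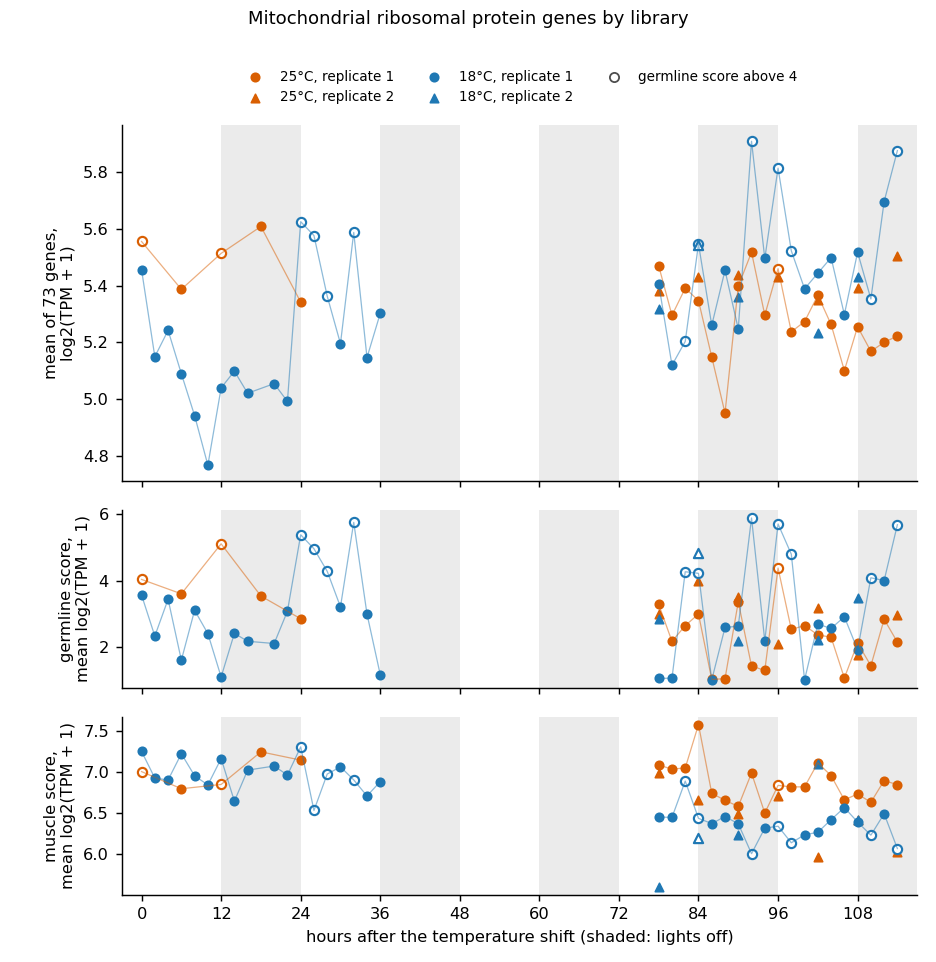
Mean log2(TPM + 1) of the 73 genes (top), germline marker score (middle) and muscle marker score (bottom) in each library against hours after the shift, with lights off shaded, orange for 25°C and blue for 18°C, circles for replicate 1, triangles for replicate 2, and open symbols for a germline score above 4. The gene mean at 18°C falls to 4.77 at 10 h, stays near 5.0 to 22 h and is 5.63 at 24 h, where the germline score is 5.37.

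Over both early days, leaving out ZT00 of day 1, 54 members were lower than on days 4 and 5 and none was higher (limma, n = 41), and 60 had an unadjusted p under 0.05, against 41.8% of all genes. Of all genes 23.9% were lower and 6.14% higher. Day 1 alone gave 69 lower and none higher against 46.6% and 5.67% of all genes, and an unadjusted p under 0.05 for 71 members against 58% of all genes, with a median log2 difference of -0.43 for the members and -0.22 for all genes. Day 2 alone gave 1 lower, *mRpS21*, and none higher, against 2.84% and 2.83% of all genes, with a median of 0.00 for the members. On that day 5 members had an unadjusted p under 0.05, against 19.2% of all genes. The separation by day was chosen after the libraries were seen, and day 1 was not tested against day 2. The germline score exceeded 4 in 4 of the 7 libraries of day 2 and in none of the 10 of day 1, with medians of 4.27 and 2.38, and its part in the separation was not tested. For 52 members (71.2%) every one of the 10 libraries of day 1 lay below the settled 18°C median, against 33.3% of all genes.

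*mRpS25* (FBgn0030572, BDGP6.54 X:14582136-14582982, minus strand), a small subunit protein without a bacterial counterpart, had the lowest adjusted p of the members on day 1. Its lowest, median and highest levels were 15.9, 23.3 and 26.8 TPM on day 1, 29.5, 34.1 and 44.5 TPM on day 2 and 25.6, 39.0 and 48.9 TPM on days 4 and 5. The ranges of day 1 and of the settled days overlapped only between 25.6 and 26.8 TPM. Its log2 difference between day 1 and days 4 and 5 was -0.75 ± 0.089 (n = 34, adjusted p = 3.97e-07).

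*mRpL36*, a small protein of the large subunit in bacteria too, differed by -0.77 ± 0.106 (adjusted p = 2.75e-06). Its median was 31.3 TPM (15.9 to 40.3) on day 1, 34.9 TPM (31.01 to 50.5) on day 2 and 46.4 TPM (35.9 to 60.5) on days 4 and 5. *mRpS33*, another small subunit protein added in mitochondria, had a median of 44.4 TPM (34.2 to 52.0) on day 1 and 61.9 TPM (51.4 to 73.5) later, a difference of -0.47 ± 0.058 (adjusted p = 5.69e-07). *mRpL19* had a median of 24.2 TPM (20.6 to 27.6) on day 1 and 34.2 TPM (24.8 to 49.4) later, a difference of -0.54 ± 0.068 (adjusted p = 6.74e-07). In each of these genes every library of day 1 stayed below the settled median.

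*mRpS21* (FBgn0044511, BDGP6.54 3R:13381276-13381809, minus strand) had the lowest adjusted p over days 1 and 2 together, with a difference of -0.48 ± 0.077 (n = 41, adjusted p = 1.99e-05). Its median was 70.5 TPM (48.7 to 82.6) on day 1, 89.2 TPM (59.5 to 91.6) on day 2 and 98.6 TPM (64.3 to 129) on days 4 and 5. It was the only member still lower on day 2, by -0.34 ± 0.104 (n = 31, adjusted p = 0.0494). Of its exon bases 48.0% are shared with *CG8870*, so the reads over that stretch cannot be told apart.

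The members that were higher in the settled 18°C libraries were lower on day 1 than in those same libraries. *mRpL10* had a median of 43.1 TPM (30.6 to 56.1) on day 1 and 53.4 TPM (46.4 to 58.6) on day 2. *mRpL47* had 32.7 TPM (27.9 to 35.7) and then 42.9 TPM (35.8 to 57.3). Against days 4 and 5 at 18°C they differed on day 1 by -0.41 and -0.42. Their medians of day 1 lay close to the settled 25°C medians of 41.8 and 32.5 TPM. Both stalk genes were lower on that day than on days 4 and 5 at 18°C. *mRpL12* had 45.5 TPM (28.5 to 64.7) and a difference of -0.56 (adjusted p = 0.000993). The settled 18°C libraries enter this comparison and the comparison of temperatures alike. Members picked as high in the latter are thus favoured to look low on day 1.

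The 4 members that did not pass on day 1 were *mRpS5* (-0.14, adjusted p = 0.0536), *mRpS28* (-0.21, adjusted p = 0.0859), *mRpL28* (-0.09, adjusted p = 0.195) and *mRpS9* (0.02 ± 0.056, adjusted p = 0.742). *mRpS9* had a median of 80.5 TPM (71.0 to 99.1) on day 1 and 79.8 TPM (73.2 to 87.7) on day 2, against 78.5 TPM on days 4 and 5. *mRpL28* had 101 TPM (87.7 to 112) on day 1 and 102 TPM (86.4 to 132) later. These include the 3 members with the highest medians at 25°C. Large subunit names counted 46 lower of 47 and small subunit names 23 lower of 26.

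Other genes of mitochondrial gene expression were low on day 1 as well. Of all genes tested 46.6% were lower on that day and 5.67% higher, with a median of -0.22. Of the 24 other genes of mitochondrial translation 22 were lower and none was higher, with a median of -0.36. Among them were *tko* (-0.37), *bonsai* (-0.52), *mEFG1* (-0.60) and *MetRS-m* (-0.73). All 12 genes of a list drawn up by name for mitochondrial gene expression were lower, with a median of -0.42. The list includes *Mitf*, whose name does not establish such a role. The nuclear respiratory chain counted 1 higher and 8 lower of 67 with a median of -0.02, and the cytosolic ribosomal proteins 64 higher and 1 lower of 85 with a median of 0.19. After rescaling by the median of ratios the other genes of mitochondrial translation counted 1 higher and 9 lower, the respiratory chain 28 higher and none lower, and the cytosolic ribosomal proteins 82 higher. In that setting 18.0% of all genes were lower and 16.4% higher. The rescaled count of the 12 genes is not given here.

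**Figure D4:**
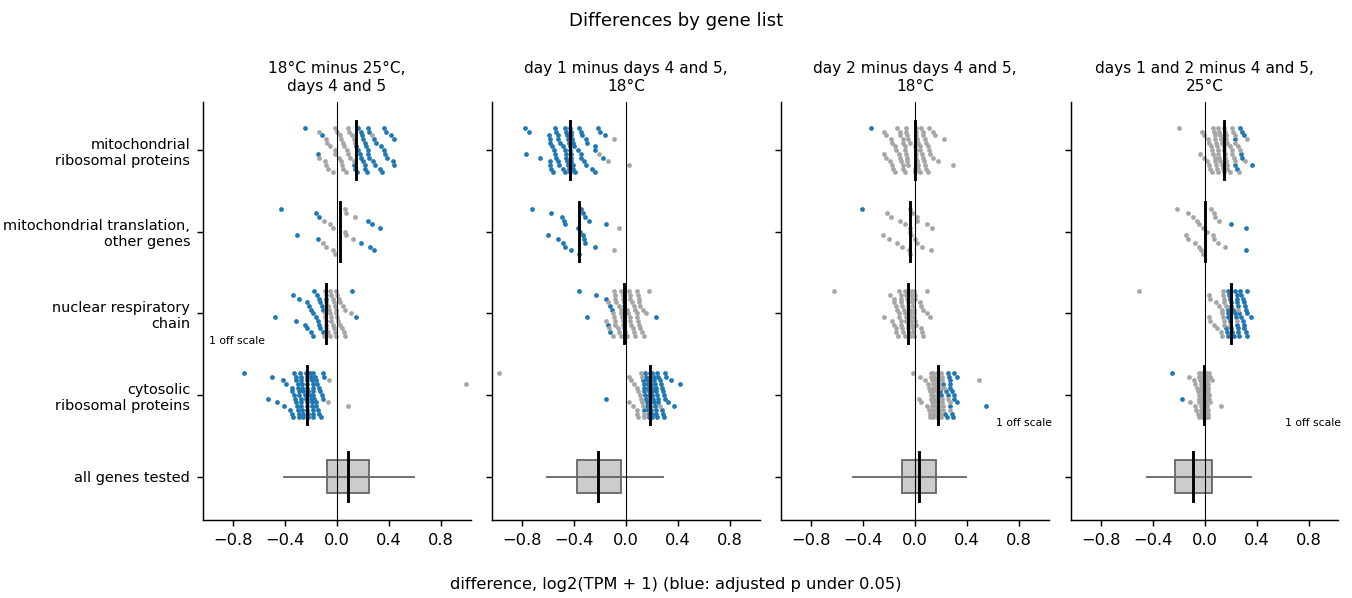
Fitted differences of single genes (points, blue where the adjusted p was under 0.05, black bar for the list's median) in 4 gene lists under 4 comparisons, on the log2(TPM + 1) scale; the box shows the quartiles of all genes tested and its line the central 90%, and genes beyond the axis are counted as off scale. On day 1 the mitochondrial ribosomal proteins (median -0.43) and the other genes of mitochondrial translation (-0.36) lie to the left of 0 and the cytosolic ribosomal proteins (0.19) mostly to the right.

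Part of the count on day 1 moved with the scale of the libraries and with tissue markers. Rescaling moved the median of all genes from -0.22 to -0.02 and left 41 members lower and 1 higher (*mRpS9*), against 18.0% and 16.4% of all genes, with a member median of -0.23. With the 4 marker scores as covariates 43 members were lower against 46.2% of all genes, and the medians of -0.32 and -0.30 lay close to each other. The muscle score had a median of 6.96 on day 1 and 6.37 on days 4 and 5, and its part in the result was not tested further. A score of 6 hemocyte markers, not among the covariates, had medians of 5.93 and 5.39, and its part was not tested. With the germline score alone as covariate 62 members were lower (40.3% of all genes), and 62 without the libraries of high germline score (34.6%).

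At 25°C, where no temperature changed, 9 members were higher on days 1 and 2 than on days 4 and 5 and none was lower (limma, n = 31), against 4.61% and 16.1% of all genes, and 22 had an unadjusted p under 0.05, against 34.5% of all genes. *mRpS35*, a small subunit protein, had 45.0, 43.4, 46.7 and 43.3 TPM at ZT00, ZT06, ZT12 and ZT18 of day 1 and 35.9 TPM at ZT00 of day 2. On days 4 and 5 it ran from 29.1 through 35.3 to 41.8 TPM, and the difference was 0.25 ± 0.069 (adjusted p = 0.0115). *mRpL2*, which in bacteria helps to form the peptidyl transferase region, had 42.9, 37.8, 40.1, 42.3 and 34.4 TPM in the same order and a settled median of 31.4 TPM (24.1 to 39.1), a difference of 0.29 ± 0.085 (adjusted p = 0.0161). The last of the 5 libraries was the lowest for both genes.

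*mRpL14*, *mRpS25*, *mRpL27*, *mRpS6*, *mRpL52*, *mRpL9* and *mRpS28* were the others, with differences from 0.23 to 0.37. The nuclear respiratory chain genes counted 43 higher and none lower of 67, with a median of 0.20. The count moved with single libraries. It was 0 without ZT12 of day 1 (2.76% of all genes higher), 2 without ZT00 (2.61%), 4 without ZT18 (3.44%) and 8 without ZT06 (3.87%). It was 12 without ZT00 of day 2 (5.53%) and 15 without replicate 2 (5.45%). *mRpS5* was lower without ZT18 and without replicate 2. After rescaling 30 members were higher, against 10.2% of all genes. No member was called with the germline score as covariate, where 2.84% of all genes were higher and 11.4% lower. None was called without the libraries of high germline score, where the early group has 3 libraries left. In that setting 0.666% of all genes were higher and 0.557% lower.

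The difference of these period effects between the temperatures was tested at the times common to all 4 groups, ZT00, ZT06 and ZT12, leaving out the hour of the shift (limma, n = 27). One member passed, *mRpL27* (FBgn0053002, BDGP6.54 2L:4458595-4459638, minus strand), whose bacterial counterpart reaches the peptidyl transferase centre. It was lower, as were 0.394% of all genes, and no member was among the 1.22% higher. Its levels early at 25°C were 93.8, 83.8, 73.8, 95.3 and 87.1 TPM, against a settled median of 67.7 TPM (41.9 to 95.5). At 18°C it had a median of 46.9 TPM (34.9 to 72.4) on day 1, 55.5 TPM (44.0 to 64.0) on day 2 and 63.9 TPM (50.6 to 85.1) on days 4 and 5. The early level was thus above the settled one at 25°C and below it at 18°C, with a difference of -0.65 ± 0.149 (adjusted p = 0.0307).

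*mRpS25* (-0.70 ± 0.200, adjusted p = 0.0672) and *mRpL9* (-0.48 ± 0.143, adjusted p = 0.0807) came next and did not pass. The unadjusted p was under 0.05 for 15 members, 20.5% of them against 16.7% of all genes. The call of *mRpL27* was lost without each of the 3 early 25°C libraries in turn, with the marker covariates and without the libraries of high germline score, while its value stayed between -0.81 and -0.59. Fewer genes passed in these settings, with 0.0815% to 0.34% of all genes lower. Rescaling gave 8 members lower against 1.43% of all genes, and library weights 17 against 1.82%. Between the temperatures on days 1 and 2, with 3 libraries each, no gene passed in limma, and 1 member had an unadjusted p under 0.05 against 12% of all genes.

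Few members were called rhythmic over 24 h. At 25°C on days 4 and 5 harmonic regression called 1 member, *mRpL46*, against 5.04% of all genes. Its amplitude was 0.20 ± 0.050 on the log2 scale with a peak at ZT0.27 ± 0.84 h (n = 26, adjusted p = 0.0432). The call was lost after rescaling (adjusted p = 0.117), where *mRpS5* was called instead, and without the filter (adjusted p = 0.087). *mRpS9* followed with an amplitude of 0.10 ± 0.026 (adjusted p = 0.055) and *mRpL45* with 0.14 ± 0.039 (adjusted p = 0.0767), and 8 members in all had an unadjusted p under 0.05 (11%), against 22% of all genes. At 18°C on days 4 and 5 no member was called, against 1.78% of all genes, although 29 (39.7%) had an unadjusted p under 0.05 against 27.4%.

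Of those 29 members at 18°C 28 peaked between ZT18 and ZT24, compared with 77.96% of all genes with such a p. *mRpL38* had the lowest p (amplitude 0.18 ± 0.048, peak at ZT22.0, adjusted p = 0.0690), followed by *mRpL53* (0.29 ± 0.078) and *mRpL19* (0.22 ± 0.059). The 3 highest gene means of the settled 18°C libraries, 5.91 at ZT20 of day 4, 5.88 at ZT18 and 5.82 at ZT00 of day 5, belonged to libraries with germline scores of 5.87, 5.67 and 5.69. The part of the germline score in the peak was not tested. Early at 18°C no member was called (0.0136% of all genes) and 9 had an unadjusted p under 0.05 (7.07% of all genes), all peaking between ZT1.3 and ZT3.2. That fit had no term for day and kept ZT00 of day 1, and day 2 was sampled only from ZT00 to ZT12. Time of day and time since the shift thus cannot be told apart in these peaks. After rescaling of the settled 18°C libraries 3 members had an unadjusted p under 0.05, and without replicate 2 there were 8 adjusted calls, against 15% of all genes. No member differed in rhythm between the temperatures, against 0.435% of all genes, and 14 had an unadjusted p under 0.05 (14% of all genes), with *mRpL21*, *mRpS24* and *mRpS7* at adjusted p of 0.202, 0.207 and 0.209.

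The members varied together from library to library. After time of day was removed within each temperature, the median Pearson correlation over the 2628 pairs of members was 0.47 at 25°C (26 libraries) and 0.56 at 18°C (24 libraries), against 0.14 over all pairs of genes at either temperature. It was 0.69 and 0.82 among the cytosolic ribosomal proteins and 0.42 and 0.58 among the respiratory chain genes. With the germline score removed as well it was 0.37 and 0.46 for the members. These are descriptions over genes that share libraries, dissections and the TPM total.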

How the data were processed

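As described in the methods and per the labels, the authors sequenced poly(A)-selected, unstranded libraries, aligned them with STAR 2.7.10a and quantified genes with RSEM against BDGP6, and deposited 1 table of TPM, each library summing to the same total. Read depth is not in the table, so no counting error can be given, and whether the table holds the deduplicated version named in the methods is not given in the sources used here. All 73 libraries were used and grouped by their labels.

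Values were analysed as log2(TPM + 1), so fold changes of low genes are understated. Genes with a median above 5 TPM at either temperature on days 4 and 5 were tested with limma 3.58.1 in R 4.3.3, with harmonic terms of 24 h or time as a factor. Rhythms were tested by the F-test of a harmonic regression, and all p-values were adjusted over 7358 genes by Benjamini-Hochberg at 0.05. The code was checked on simulated data.

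Genes were named by their adjusted p in each comparison, by level, or for their known roles (*mRpL29* has no row). The members and lists were chosen with earlier results of these data known. Gene positions came from the Ensembl annotation of BDGP6.54, a later release than the authors used. Promoters were not analysed here. Alternatives covered pseudocounts, filters, median-of-ratios rescaling, the replicate block, left-out replicates and libraries, days, light phases, marker covariates and library weights.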

Additional observations from a re-analysis of the deposited data

Results flagged for a closer look

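In the group of 5 early 25°C libraries, 40 members were examined for a library far from the others, and 3 had one, where chance alone marks about 1 group in 20. *mRpL47* had 29.43 TPM at ZT00 of day 2 against 41.83 to 47.2 TPM in the others. *mRpS35* had 35.93 TPM in the same library against 43.34 to 46.69 TPM. *mRpS5* had 118.51 TPM at ZT18 of day 1 against 73.95 to 84.7 TPM. The period effect of *mRpL27* differed between the temperatures by -0.65 (limma, adjusted p = 0.0307).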

How the results depend on the processing

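For 18°C against 25°C on days 4 and 5 (38 higher, 3 lower), leaving out a replicate gave 0 to 45 higher and 1 lower. Rescaling and the removal of high germline libraries each gave 24 higher and 9 lower, and marker covariates 23 and 8. The germline covariate gave 26 higher and 9 lower (29.4% and 18.8% of all genes). Library weights gave 41 and 6 (35.3% and 19.4%) and no filter 35 and 1 (18.6% and 8.4%). Day 4 alone gave 12 and 1 (11.3% and 12.7%) and day 5 alone 42 and 1 (40.1% and 8.52%). Lights on gave 6 and 3 (15.4% and 9.42%) and lights off 31 and 1 (23% and 9.49%). Without replicate 1, *mRpS33* (-0.03), *mRpL23* (-0.01) and *mRpS18A* (-0.19) reversed, against 0.30, 0.23 and 0.36 without replicate 2.

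For days 1 and 2 against days 4 and 5 at 18°C (54 lower), rescaling gave 32 lower, against 12.5% of all genes. Marker covariates gave 21, against 32.1%. Left-out replicates or libraries gave 54 to 59, against 29.1% to 30.6%, and day 2 alone 1, against 2.84%. Rescaled day 1 gave 1 higher, against 16.4%. On day 2, when 36 of the 73 members had a positive difference, the sign reversed among the genes named here for *mRpL47* (0.05), *mRpL18* (0.07), *mRpS24* (0.00), *mRpL19* (0.08), *mRpL9* (0.00), *mRpL2* (0.14), *mRpL39* (0.06), *mRpL11* (0.06), *mRpL12* (0.02), *mRpL23* (0.04), *mRpL55* (0.01) and *mRpS18B* (0.03), none of them called there. At 25°C (9 higher) no filter gave 4 higher (2.36% of all genes), rescaling 30 (10.2%) and library weights 15 higher and 1 lower (5.56% and 21.8%). Marker covariates gave 0, where 4.13% of all genes were higher and 30.2% lower. The germline covariate (2.84% and 11.4%) and removal of high germline libraries (0.666% and 0.557%) also gave 0. Left-out libraries gave 0 to 15 higher and 0 to 1 lower, against 2.61% to 5.53% and 7.27% to 24.5% of all genes. For temperature by period (1 lower) the counts were 8 rescaled (1.43% of all genes), 2 above 20 TPM (0.81%) and 17 with library weights (1.82%). They were 0 with marker covariates (0.34%) or without high germline libraries (0.0815%), and 0 to 2 with left-out libraries (0.0815% to 0.245%).

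Rhythm calls at 25°C (1) were 0 without a filter (1.29% of all genes) and 2 above 20 TPM (7.58%). Without a replicate they were 0 to 1 (0% to 2.89%), and 8 had an unadjusted p under 0.05 (22%). At 18°C (0) they were 0 to 8 without a replicate (0% to 15%) and 29 unadjusted (27.4%), with 9 unadjusted early at 18°C (7.07%). Replicate numbers did not pair the libraries: over 24 matched pairs the correlation of deviations had a median of 0.021 (-0.459 to 0.541). The replicate block gave 39 higher and 3 lower (35.5% and 16.3% of all genes), with 3 rhythm calls at 25°C (8.02%) and 1 at 18°C (3.64%). The germline settings, the split into day 1 and day 2, and the removal of the 18°C library at ZT00 of day 2 were chosen after seeing the data. Of 1748 re-estimates for single genes 1436 kept direction and side of the threshold or were uncalled in both, 233 lost and 64 gained the call and 15 reversed; the cause was not tested. Replicate 2 has few libraries, and TPM gives no depth.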
